A study of Mus musculus with 12 samples.

Results

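The T cell and NK cell genes described here are 37 named genes that mark these lymphocytes or carry out their work. They were chosen by gene symbol, and all 37 had a row in the liver table (of 16703 genes) and in the table of liver sinusoidal endothelial cells (LSEC, of 16273 genes). By role they are 13 genes of the T cell receptor complex and T cell lineage, 8 of costimulation and checkpoints, 5 NK cell receptors, 7 cytotoxic effectors and 4 lineage transcription factors. C57BL/6 mice were compared by RNA-seq in 4 groups of 3 libraries: whole liver of mice with nonalcoholic steatohepatitis (NASH), whole liver of mice on chow, LSEC of mice with NASH and LSEC of mice on chow. NASH was brought about by diet alone (D09100301, Research Diets), with no genetic change named. The labels give 36 weeks of that diet in a text attached to every library, the chow libraries included, and give no age. LSEC had been enriched with magnetic beads: cells carrying CD11b were removed from the non-parenchymal cells, and cells carrying CD146 were then collected.

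T cells recognise antigen through a receptor whose signal passes from the CD3 chains and CD247 to the kinases Lck and Zap70, with CD4 or CD8 as coreceptor. Costimulatory receptors such as CD28 raise the response, and checkpoint receptors such as PD-1, TIGIT, LAG-3 and TIM-3 restrain it and accumulate on T cells that meet antigen for long. NK cells lack that receptor, read a balance of activating and inhibitory receptors, and kill with the same granule proteins as CD8 T cells, perforin and granzymes. The liver is rich in both kinds of lymphocyte, which lie in the sinusoids against the LSEC. In fatty liver disease CD8 T cells that carry PD-1 have been described to accumulate in mice and in patients.

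Liver libraries held 47000197 to 57397720 recovered reads, and LSEC libraries 18527017 to 19402863. The 37 genes drew few of these reads, 0.00384 to 0.0116% of a liver library and 0.0143 to 0.0339% of an LSEC library. The median gene of the 37 had 61.2 reads per liver library and 68.3 per LSEC library, against 499 and 288 over all genes. In liver 13 of the 37 averaged under 50 reads and in LSEC 16 did. Ifng in liver and Foxp3 in LSEC averaged under 10. No gene was at 0 in a whole group, but single libraries were: Pdcd1 and Ctla4 in the third chow liver, Ifng in the first chow liver, Tigit in the third chow LSEC library and Foxp3 in the second NASH LSEC library. A count of 0 there allows up to 3 reads, which are 2.41 to 3.56 normalized reads in liver libraries and 2.79 to 3.26 in LSEC libraries. Single libraries stood apart in these genes: the first chow LSEC library was the highest of 6 for 23 of the 37, the third NASH liver the highest for 25 and the third chow liver the lowest for 29, and counts without them are given below. Values below are normalized reads, that is reads divided by 1 factor per library. Fold changes are log2 of NASH over chow on log2(normalized reads + 1). Adding 1 makes changes at low counts look smaller. A single library at 0 can make them look larger, since means are taken over logs. Pdcd1 in liver was at 3.80 on this scale and at 3.08 in the authors' deposited table. A gene was called at a limma adjusted p under 0.05.

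In NASH liver 25 of the 37 genes were called higher, 1 lower and 11 not called, whereas 25.0% of all liver genes were called higher and 21.0% lower. The median log2 fold change was 1.27 over the 37 genes and 0.02 over all genes. In LSEC from NASH mice 3 of the 37 were higher and 0 lower, with 5.24% of all LSEC genes higher and 2.86% lower. At an unadjusted p under 0.05 limma had 8 higher and 0 lower there, and edgeR and DESeq2 also called 0 lower. Of all 16273 LSEC genes 4223 had such an unadjusted limma p, counting both directions, so the 8 do not stand out in number. Their median log2 fold change there was -0.05. Pdcd1, which encodes the checkpoint receptor PD-1, Havcr2, which encodes TIM-3, and Gzmk, which encodes granzyme K, were higher in both tissues. Whole tissue RNA cannot tell apart more T or NK cells from more RNA of a gene per cell. The same holds for the LSEC libraries, which were enriched cells and held 141 to 567 reads of Cd3d, Cd3e and Cd3g together. Which cells gave the reads of these genes in LSEC was not tested.

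**Figure D1:**
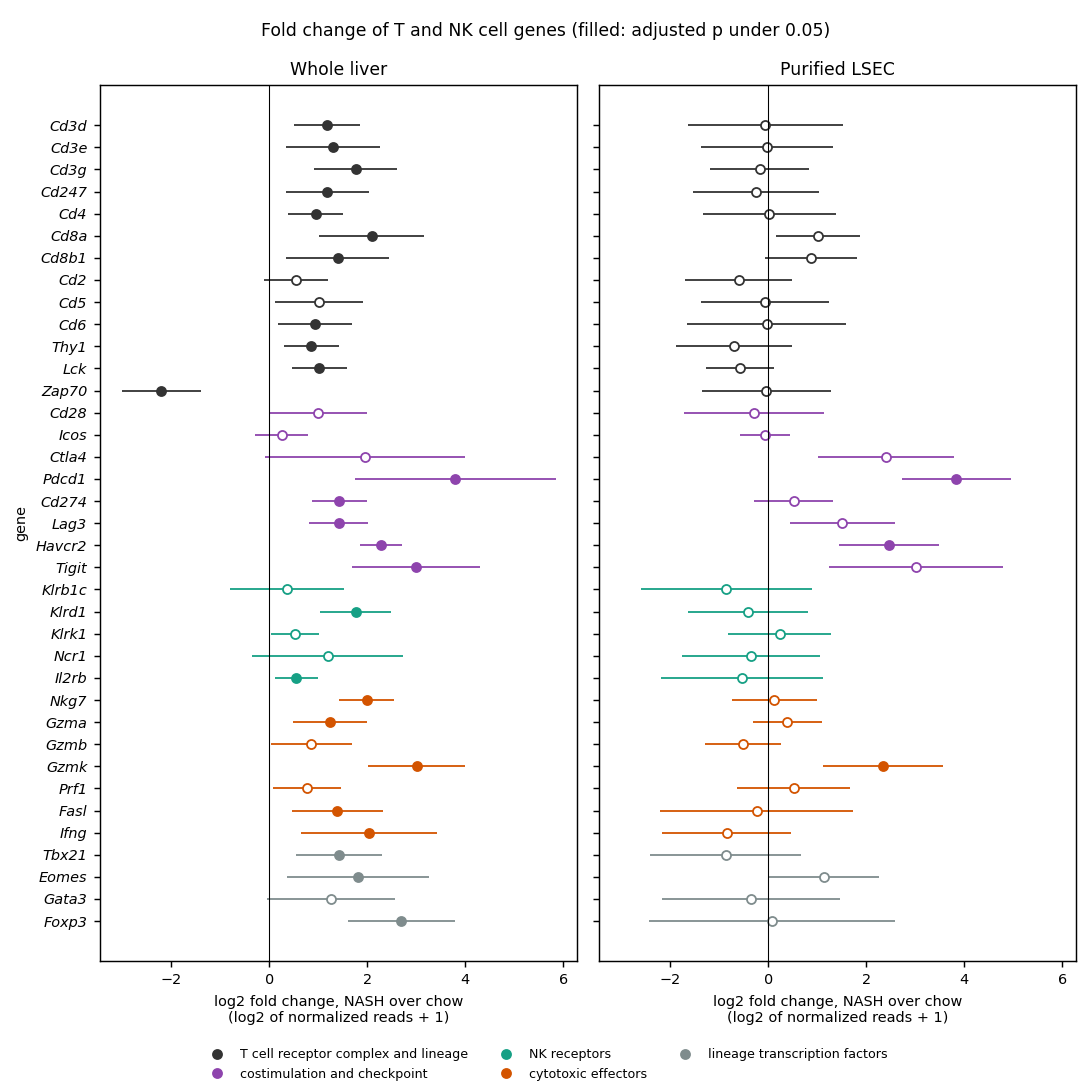
Log2 fold change of NASH over chow (horizontal axis) for each of the 37 genes (rows, coloured by role) in whole liver on the left and in purified LSEC on the right. Points are estimates, lines 95% intervals, and filled points passed an adjusted p under 0.05. In liver 25 points are filled right of 0 and Zap70 alone is filled left of 0, at -2.20. In LSEC only Pdcd1, Havcr2 and Gzmk are filled, at 3.84, 2.46 and 2.34.

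Upstream sequence is shown for the 3 genes higher in both tissues, for Cd3e as a CD3 chain that was called higher in liver and not called in LSEC, and for Zap70 as the gene that was lower in liver. Each line holds the 250 bases before the RefSeq transcription start (build GRCm38.p6), 5′ to 3′ on the gene's strand. The windows are chr1:94052554-94052803 on the minus strand for Pdcd1, chr11:46454681-46454930 on the plus strand for Havcr2, chr13:113180966-113181215 on the minus strand for Gzmk, chr9:45009612-45009861 on the minus strand for Cd3e and chr1:36761548-36761797 on the plus strand for Zap70, the first of 3 RefSeq entries of that gene. Capitals mark matches on either strand to 4 short motifs of T cell factors: the NFAT core GGAAA, the RUNX motif TGTGGT, the T-box site GTGTGA and the AP-1 motif TGANTCA.
Pdcd1: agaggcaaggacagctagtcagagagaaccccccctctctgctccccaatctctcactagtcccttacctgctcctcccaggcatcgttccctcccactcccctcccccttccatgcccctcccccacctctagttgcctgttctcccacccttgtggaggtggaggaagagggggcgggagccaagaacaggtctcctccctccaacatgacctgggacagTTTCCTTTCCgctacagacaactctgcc
Havcr2: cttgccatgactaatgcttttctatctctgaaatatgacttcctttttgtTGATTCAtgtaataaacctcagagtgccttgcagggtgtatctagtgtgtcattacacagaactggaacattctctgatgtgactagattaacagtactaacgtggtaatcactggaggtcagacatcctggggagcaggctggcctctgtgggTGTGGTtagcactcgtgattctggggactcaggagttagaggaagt
Gzmk: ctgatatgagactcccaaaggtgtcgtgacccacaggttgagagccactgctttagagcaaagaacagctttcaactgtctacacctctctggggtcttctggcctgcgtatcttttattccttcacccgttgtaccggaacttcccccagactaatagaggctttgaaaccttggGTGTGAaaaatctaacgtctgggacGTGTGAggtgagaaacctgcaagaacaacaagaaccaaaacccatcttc
Cd3e: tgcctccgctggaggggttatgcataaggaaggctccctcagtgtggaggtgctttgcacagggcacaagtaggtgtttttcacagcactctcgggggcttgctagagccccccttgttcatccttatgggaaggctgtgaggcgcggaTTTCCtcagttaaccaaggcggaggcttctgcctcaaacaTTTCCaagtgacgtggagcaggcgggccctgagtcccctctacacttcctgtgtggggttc
Zap70: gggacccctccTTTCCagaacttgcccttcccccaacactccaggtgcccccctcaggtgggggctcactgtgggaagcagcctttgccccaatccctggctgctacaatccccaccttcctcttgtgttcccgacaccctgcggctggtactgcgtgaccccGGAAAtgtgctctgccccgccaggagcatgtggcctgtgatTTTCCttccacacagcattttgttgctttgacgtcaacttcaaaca
The window of Pdcd1 held 2 matches to the NFAT core, which overlap no other motif searched. Havcr2 had 1 RUNX match and 1 AP-1 match, and Gzmk had 2 T-box sites. Cd3e and Zap70 had 2 and 3 matches to the NFAT core and none to the other motifs. Over 32851 promoter entries searched in the same way, 55.6% held the NFAT core, 14.0% the RUNX motif, 12.3% the T-box site and 6.75% the AP-1 motif. Of the 27 of the 37 genes with an entry, 18 held the NFAT core, 11 the RUNX motif, 5 the T-box site and 2 the AP-1 motif. A match is a run of letters and was not tested as a binding site.

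The first comparison asked which of these genes differ between NASH and chow in whole liver. Of the 13 genes of the T cell receptor complex and lineage, 10 were higher, Zap70 was lower, and Cd2 and Cd5 were not called. The CD3 chains are the signalling part of the receptor that all T cells share. Cd3g had 125, 143 and 226 normalized reads in the 3 NASH livers, against 74.7, 50.7 and 25.6 in the 3 chow livers, a log2 fold change of 1.77 ± 0.38 (SE, adjusted p = 0.00418). Cd3e had 85.4, 156 and 173 in NASH livers and 75.9, 75.5 and 25.6 in chow livers, and Cd3d had 67.0, 101 and 121 in NASH livers and 52.2, 43.2 and 29.7 in chow livers. For all 3 chains each NASH liver was above each chow liver, with the highest value in the third NASH liver and the lowest in the third chow liver. The log2 fold changes of Cd3e and Cd3d were 1.30 and 1.18 (adjusted p = 0.0316 and 0.0106). Cd247, the zeta chain that carries most of the receptor's signalling motifs, rose by 1.19, and Lck, the kinase that starts the signal, by 1.03 (adjusted p = 0.0266 and 0.00895).

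Cd8a encodes the alpha chain of the coreceptor of cytotoxic T cells, and Cd4 the coreceptor of helper and regulatory T cells. Cd8a had 159, 240.3 and 246 normalized reads in NASH livers, against 93.7, 62.6 and 19.5 in chow livers, a log2 fold change of 2.09 (adjusted p = 0.00597). Its 3 NASH values lay above all chow values, which spread widely. Cd8b1, the partner chain, rose by 1.40 (adjusted p = 0.0347). Cd4 had 124, 142 and 147 in NASH livers and 97.3, 71.2 and 51.3 in chow livers, a log2 fold change of 0.94 (adjusted p = 0.0126). The groups did not overlap for Cd4 either. Per 100 reads of Cd4 there were 128, 169.5 and 167 reads of Cd8a in NASH livers, against 96.3, 87.9 and 38.0 in chow livers. In every NASH liver Cd8a had more reads than Cd4 and in every chow liver fewer. These reads were not divided by exon length, which is 3637 bases for Cd8a and 4032 for Cd4. The partner chain Cd8b1 had fewer reads than Cd4 in every liver, at 105, 76 and 160 against 135, 141 and 183 in NASH livers. In LSEC the ratio of Cd8a to Cd4 did not part the diets, at 297, 158 and 96.9 in NASH LSEC and 46.2, 126 and 95 in chow LSEC, which overlapped. This ratio was looked at after the values were seen and was not tested. An exact permutation test of 3 libraries against 3 cannot go below p = 0.1.

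Among the other lineage genes, Thy1, a surface glycoprotein of T cells that stellate cells and fibroblasts can also carry, rose by 0.85, and Cd6, an adhesion receptor that tunes the T cell receptor signal, by 0.93 (adjusted p = 0.0194 and 0.0475). Cd5, an inhibitor of receptor signalling, was at 64.7 ± 19.5 in NASH livers and 33.6 ± 16.2 in chow livers (mean ± SD, n = 3 each), and its groups overlapped (adjusted p = 0.0639). Cd2, an adhesion receptor of T and NK cells, had 79.9, 85.5 and 72.4 normalized reads in NASH livers and 75.9, 57.2 and 35.9 in chow livers (adjusted p = 0.150). The first chow liver lay within the range of the NASH livers.

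Zap70, the kinase that binds the phosphorylated CD3 and zeta chains, went the other way. It had 263, 523 and 156 normalized reads in NASH livers, against 1532, 1421 and 966 in chow livers, a log2 fold change of -2.20 ± 0.36 (adjusted p = 0.00098). Every NASH liver was below every chow liver, and the call held in each alternative setting tried, at a log2 fold change of -1.79 when libraries were scaled by total reads. Zap70 also stood apart in level. Per kilobase of exon it had 437 normalized reads in chow livers, the highest of the 37 genes, and 105 in NASH livers, against 14.5 and 33.8 for Cd3e. Per 100 reads of Cd3d, Cd3e and Cd3g together it had 94.7, 131 and 30.0 reads in NASH livers and 755, 839 and 1192 in chow livers, whereas in LSEC it had 22.2, 19.5 and 21.1 in NASH libraries and 22.8, 15.9 and 22.0 in chow libraries. In LSEC the reads of Zap70 thus kept close to a constant share of the CD3 reads in all 6 libraries, and in liver they did not. Zap70 lies at chr1:36761798-36782818 on the plus strand (mm10, GENCODE M21) and shares no exonic base with another annotated gene. Which cells of the liver these reads came from cannot be read from whole tissue.

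**Figure D2:**
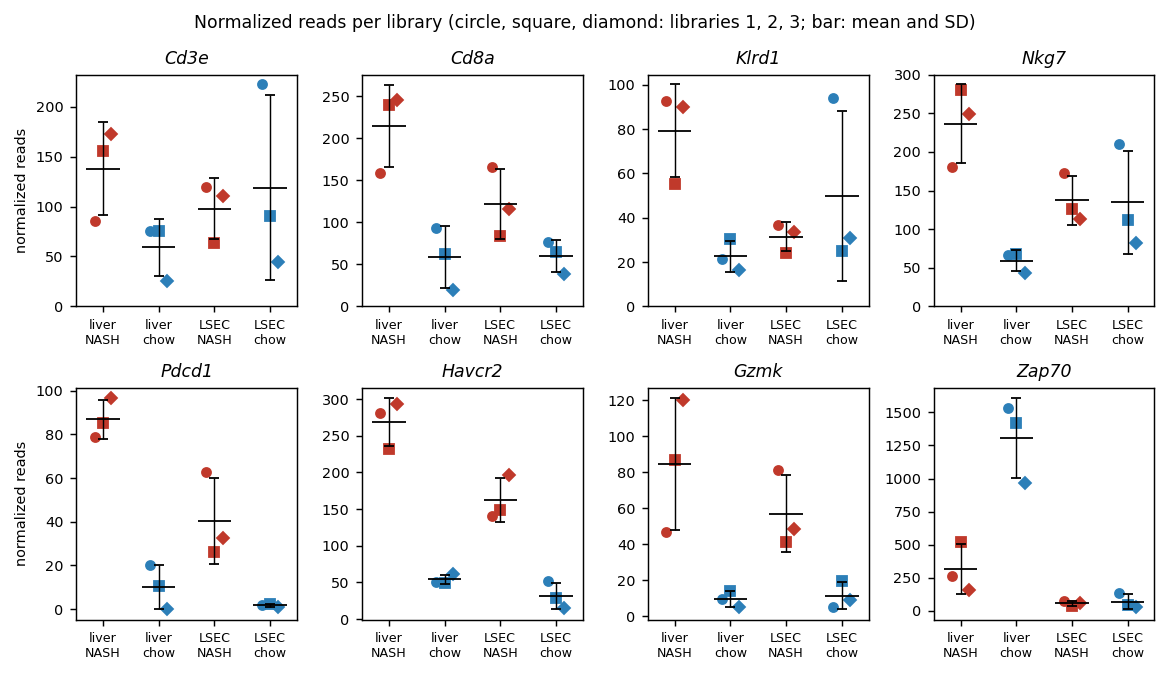
Normalized reads (vertical axis, linear) in each library for 8 of the genes, with NASH in red and chow in blue. Circle, square and diamond are libraries 1, 2 and 3 of a group, and bars are the mean and SD. Liver and LSEC values come from tables normalized separately. Pdcd1, Havcr2 and Gzmk are higher in every NASH library of both tissues, and Zap70 is lower in every NASH liver, at 156 to 523 against 966 to 1532 in chow livers. The first chow LSEC library is the highest LSEC value of Cd3e, Klrd1 and Nkg7.

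Of the 8 genes of costimulation and checkpoints, 5 were higher in NASH liver and 0 lower. Pdcd1 had 78.9, 85.5 and 96.5 normalized reads in NASH livers, against 20.2, 10.8 and 0 in chow livers, a log2 fold change of 3.80 ± 0.91 (adjusted p = 0.00758), the largest among the 37 genes in liver in this fit. In the authors' deposited table it was 3.08, below that of Gzmk at 3.15, and without the third chow liver, the library at 0, it was 2.47 (adjusted p = 0.000561), again below Gzmk. The NASH values lay close together and far above the chow values. Tigit, a receptor that T and NK cells use to bind the poliovirus receptor family, had 52.3, 84.4 and 75.6 in NASH livers and 14.2, 14.0 and 2.05 in chow livers, a log2 fold change of 2.99 (adjusted p = 0.00253). Neither gene's groups overlapped, and the third chow liver was the lowest for both. Lag3, a checkpoint receptor that binds class II molecules, had 179.9, 202 and 215 in NASH livers, against 93.7, 89.6 and 47.2 in chow livers, a log2 fold change of 1.42 (adjusted p = 0.00209).

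Havcr2 had 281, 231 and 293 normalized reads in NASH livers, against 51.0, 49.6 and 61.5 in chow livers, a log2 fold change of 2.29 ± 0.19 (adjusted p = 2.5e-05), the smallest adjusted p of the 37. The groups lay far apart and each was tight. TIM-3 is known from macrophages and dendritic cells as well as from T cells, and macrophage markers moved with it: 9 of 14 macrophage and Kupffer cell markers were higher and 3 lower, with summed levels of 93282 to 145315 in NASH livers and 49919 to 71606 in chow livers. Per 100 reads of the macrophage gene Cd68, Havcr2 had 9.19, 8.0 and 6.43 reads in NASH livers and 5.64, 4.69 and 4.43 in chow livers, every NASH value above every chow value. Of those markers only Cd68 was used as a base, and the ratio was given without a test. The part of macrophages in the result was not tested. Cd274 encodes PD-L1, the ligand of PD-1, which macrophages, endothelial cells and hepatocytes can carry. It had 299, 629 and 554 in NASH livers, against 182, 156 and 186 in chow livers, a log2 fold change of 1.43 (adjusted p = 0.00140). The chow livers were tight and the first NASH liver was the lowest of its group, still above them all.

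The remaining costimulation genes were not called in liver. Ctla4, a checkpoint receptor that competes with CD28, had 23.9, 12.1 and 25.7 normalized reads in NASH livers and 19.0, 6.47 and 0 in chow livers, so that the first chow liver lay within the NASH range (log2 fold change 1.95, 95% interval -0.10 to 4.0, adjusted p = 0.107). Cd28 itself was at 78.6 ± 42.4 in NASH livers and 36.3 ± 13.5 in chow livers, and Icos, a costimulator of helper T cells, at 75.8 ± 8.48 and 64.2 ± 14.0 (mean ± SD, n = 3 each, adjusted p = 0.0928 and 0.416). Groups overlapped for both.

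NK cell receptors moved less evenly. Klrd1, the CD94 chain that pairs with NKG2 receptors, had 92.7, 55.3 and 90.1 normalized reads in NASH livers, against 21.4, 30.2 and 16.4 in chow livers, a log2 fold change of 1.77 (adjusted p = 0.00177), with no overlap. Il2rb, the interleukin receptor chain through which NK cells and memory T cells sense IL-2 and IL-15, rose by 0.55 (adjusted p = 0.0440). The genes that mark NK cells most closely in this mouse strain were not called with all libraries. Klrb1c, a lectin receptor used to define NK cells in C57BL/6 mice, had 79.9, 19.1 and 49.1 in NASH livers and 22.5, 58.3 and 26.7 in chow livers, and Ncr1, an activating receptor found almost only on NK cells and related innate lymphocytes, had 38.6, 6.03 and 37.8 in NASH livers and 4.75, 16.2 and 8.20 in chow livers (adjusted p = 0.604 and 0.184). For both genes the second NASH liver was the lowest of its group and the second chow liver the highest of its group, so the diets overlapped. Without the second NASH liver Ncr1 was called higher, at a log2 fold change of 2.02 (adjusted p = 0.0138), and Klrb1c was not. Klrk1, the activating receptor NKG2D shared by NK and CD8 T cells, was at 162 ± 35.8 in NASH livers and 111 ± 16.2 in chow livers (mean ± SD, n = 3 each, adjusted p = 0.0759).

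Of the 7 cytotoxic effector genes, 5 were higher. Gzmk, a granzyme typical of memory-like CD8 T cells, had 46.8, 86.5 and 119.8 normalized reads in NASH livers, against 9.49, 14.0 and 5.13 in chow livers, a log2 fold change of 3.01 ± 0.44 (adjusted p = 0.000511). Nkg7, a granule membrane protein needed for release of the granules, had 179.9, 280.5 and 249 in NASH livers and 66.4, 68.0 and 43.1 in chow livers, a log2 fold change of 1.99 (adjusted p = 0.000213). Neither gene's groups overlapped, and Nkg7 had the highest level per kilobase of the 37 genes in NASH livers, 259 normalized reads against 64.7 in chow livers. Gzma, granzyme A, rose by 1.24 and Fasl, the death ligand of T and NK cells, by 1.39 (adjusted p = 0.0131 and 0.0202). Ifng, the interferon that activates macrophages, rested on few reads, 9.18, 9.05 and 4.83 normalized reads in NASH livers and 0, 3.24 and 1.03 in chow livers (log2 fold change 2.04, adjusted p = 0.0228). Gzmb and Prf1, granzyme B and perforin, which are the killing proteins of fully armed effector cells, were not called by limma. Gzmb had 43.1, 123 and 56.3 in NASH livers and 38.0, 39.9 and 31.8 in chow livers (adjusted p = 0.0825). Prf1 had 34.0, 49.3 and 53.9 in NASH livers and 27.3, 32.4 and 19.5 in chow livers (adjusted p = 0.0676). Each NASH value was still above each chow value for both, with the second NASH liver far above the others for Gzmb. The authors' deposited table, from DESeq2, has Gzmb higher at a log2 fold change of 1.01 (adjusted p = 0.0387) and Prf1 uncalled at 0.80 (adjusted p = 0.0980). Prf1 passed with pseudocount 10 (adjusted p = 0.0493).

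Transcription factors of T cell fate followed. Foxp3, which defines regulatory T cells, had 29.4, 31.2 and 24.1 normalized reads in NASH livers, against 8.30, 2.16 and 2.05 in chow livers, a log2 fold change of 2.70 (adjusted p = 0.00173). These are 93 reads in the NASH livers together and 11 in the chow livers. Tbx21, which encodes T-bet, the factor of interferon-making T and NK cells, rose by 1.43 (adjusted p = 0.0141). Eomes, its relative in memory CD8 T cells and NK cells, had 17.4, 73.4 and 63.5 in NASH livers and 27.3, 10.8 and 5.13 in chow livers (log2 fold change 1.81, adjusted p = 0.0431), so that the first NASH liver lay below the first chow liver. Gata3, the factor of type 2 helper cells, was at 18.8 ± 5.94 in NASH livers and 8.59 ± 5.67 in chow livers (mean ± SD, n = 3 each, adjusted p = 0.102).

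Across the 37 genes, all 3 NASH livers were above all 3 chow livers for 27 genes and below them for 1, against 29.8% and 27.3% of all liver genes. Counts changed when single libraries were left out. Without the third NASH liver 14 of the 37 genes were called, and without the third chow liver 19 were, against 26 with all libraries. The share of all genes called in those fits is not given here, so the drop was not shown to be particular to the 37. The calls of Cd3e, Cd247, Cd8b1, Cd6, Il2rb, Fasl and Eomes ended in both cases, and those of Cd3d, Cd4, Thy1, Gzma and Tbx21 without the third NASH liver. The call of Ifng ended without the first or the second NASH liver or the first chow liver, and Thy1 was also lost without the first NASH liver or the second chow liver. Without the first NASH liver the calls of Cd247, Cd8b1 and Il2rb also ended. Without the second NASH liver those of Cd3e, Cd247, Cd8b1, Cd6, Il2rb, Fasl and Eomes did. That of Cd6 ended without the first chow liver, and those of Cd247, Cd8b1, Cd6, Il2rb and Eomes without the second chow liver. Some calls ended although the log2 fold change rose, as for Cd247 without the first NASH liver (1.33 against 1.19 with all libraries). Adjusted p-values of the calls that ended were at most 0.181. Without the third chow liver the log2 fold changes of Cd3e and Cd8b1 were 0.79 and 0.80. Other genes gained a call: Cd28, Klrk1 and Gzmb without the first NASH liver, Ncr1 without the second, and Cd5 and Ctla4 without the first chow liver. Settings other than the libraries ended a few calls too, that of Ifng with pseudocount 0.1 and with DESeq2 (adjusted p = 0.0518 and 0.0969), those of Cd6 and Eomes with pseudocount 0.1 (0.0519 and 0.0518) and that of Il2rb with pseudocount 10 (0.0520). Calls that held without any single library and under every other setting tried, at an adjusted p under 0.05, were those of Cd3g, Cd8a, Lck, Zap70, Pdcd1, Cd274, Lag3, Havcr2, Tigit, Klrd1, Nkg7, Gzmk and Foxp3, 13 genes in all. Scaling by total reads moved the median of all liver genes to 0.43 and the count of the 37 to 32 higher and 1 lower, with 47.2% of all genes higher and 5.41% lower. It added Cd2, Cd5, Cd28, Klrk1, Gzmb, Prf1 and Gata3.

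**Figure D3:**
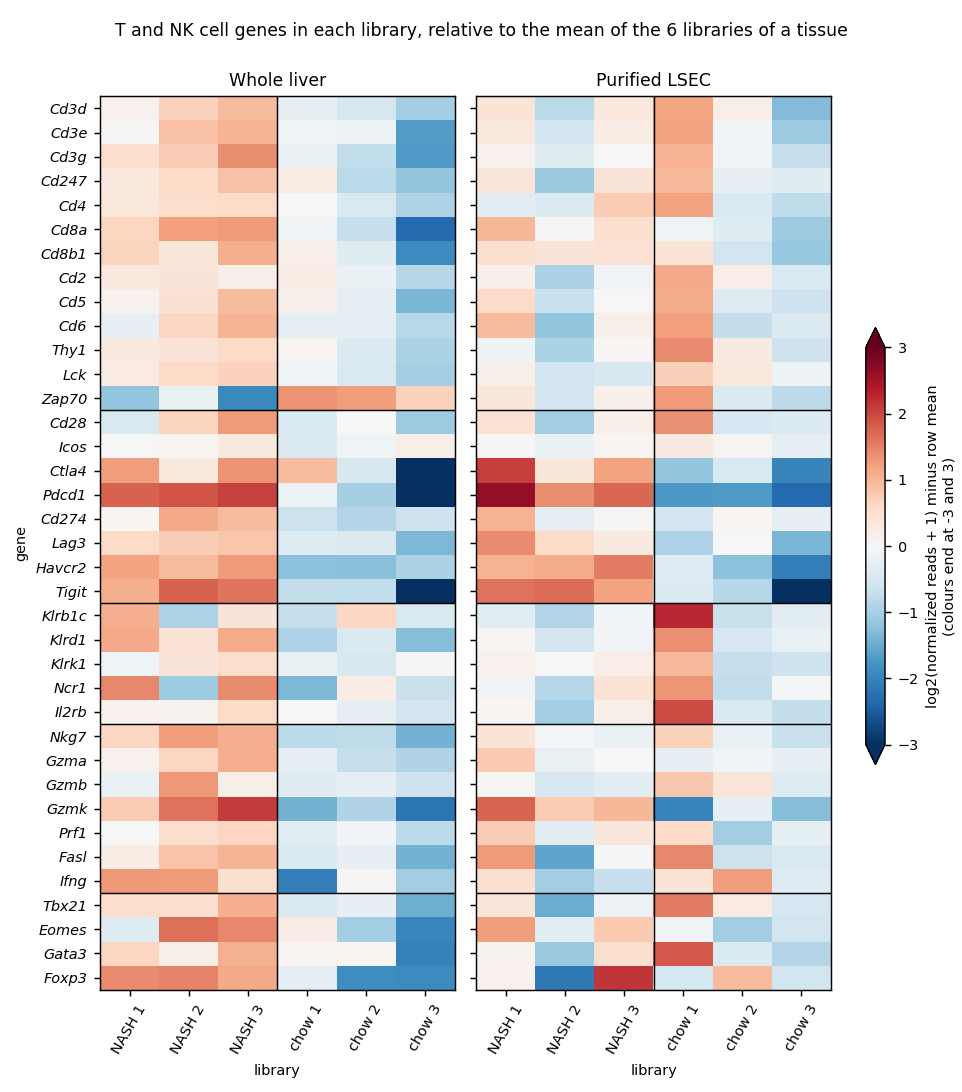
Each of the 37 genes (rows) in each library (columns, NASH left of chow), as log2(normalized reads + 1) minus the gene's mean over the 6 libraries of its tissue, with colours that end at -3 and 3. Horizontal lines part the roles. In liver the third chow library is the lowest for 29 of the 37 genes. In LSEC the first chow library is the highest for 23 of the 37 genes.

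Other genes of the same pathways, listed by role, were counted in liver in the same way. Of 25 further genes of T cell receptor signalling, 15 were higher and 1 lower, with a median log2 fold change of 1.09. Themis, which T cells need for selection in the thymus, had 1564, 2284 and 1873 normalized reads in NASH livers, against 259, 172 and 164 in chow livers (log2 fold change 3.27, adjusted p = 3.59e-06). Cd3g had 125, 143 and 226 in the NASH livers and 74.7, 50.7 and 25.6 in the chow livers, each below Themis. In LSEC Themis was below Cd3g in every library, at 60.9, 33.6 and 87.4 in NASH LSEC and 75.2, 23.9 and 11.3 in chow LSEC. Which liver cells gave the Themis reads was not tested. Vav1, a signal carrier shared with B cells, rose by 1.67, and Plcg1, which is used in many cell types, fell by 0.51 on the log2 scale. Of 28 measured surface receptors, 14 were higher and 3 lower. Itgae, the integrin chain CD103 of tissue-resident T cells and some dendritic cells, rose by 2.16, and Slamf7, a receptor of NK cells, plasma cells and macrophages, by 2.85. Il12rb1, a chain of the receptor for IL-12 and IL-23, was lower, as was Zap70: it had 44.1, 45.2 and 41.0 in NASH livers, against 249, 228 and 226 in chow livers (log2 fold change -2.40, adjusted p = 1.49e-05). Of 20 further cytotoxic and transcription genes, 11 were higher and 2 lower, among them Prdm1, which encodes Blimp-1, at 1.99. None of the 9 constant-region genes of the T cell receptor listed was measured.

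Markers of other blood cells moved with these genes in liver. Of 10 genes shared by all leukocytes 9 were higher, with summed levels of 24787 to 36456 normalized reads in NASH livers and 13059.6 to 15281 in chow livers. The log2 fold change of Ptprc, the leukocyte antigen CD45, was 1.53. Dendritic cell markers were higher for 8 of 11 genes, neutrophil markers for 8 of 9 measured and stellate cell and fibroblast markers for 11 of 14. B cell and plasma cell markers were higher for 3 of 12 measured, with sums of 2718 to 4365 in NASH livers and 1349.5 to 3488 in chow livers. Hepatocyte markers were lower for 5 of 9 measured, and endothelial markers were higher for 2 and lower for 8 of 16. No marker on these lists was at 0 in all libraries. Their part in the changes of the T and NK cell genes was not tested.

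The second comparison asked the same of LSEC. Here 3 of the 37 genes were called, all higher in NASH, and none of them belonged to the T cell receptor complex. Pdcd1 had 62.8, 26.1 and 32.5 normalized reads in NASH LSEC, against 2.09, 2.18 and 1.02 in chow LSEC, a log2 fold change of 3.84 ± 0.47 (adjusted p = 0.00901). In reads these are 128 in the NASH libraries together and 5 in the chow libraries. Havcr2 had 141, 148 and 197 in NASH LSEC, against 51.2, 28.3 and 15.4 in chow LSEC, a log2 fold change of 2.46 ± 0.44 (adjusted p = 0.0232). Gzmk had 81.2, 41.1 and 48.3 in NASH LSEC and 5.22, 19.6 and 9.21 in chow LSEC, a log2 fold change of 2.34 ± 0.52 (adjusted p = 0.0399). For all 3 genes each NASH library was above each chow library.

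Leaving out single libraries ended each of these LSEC calls in some fits. The call of Pdcd1 ended without the third NASH library (adjusted p = 0.0521), that of Havcr2 without any of the NASH libraries or without the third chow library (0.0572 to 0.101), and that of Gzmk without any library except the second chow library (0.0667 to 0.126). Log2 fold changes in those fits were 3.94 for Pdcd1, 2.05 to 2.56 for Havcr2 and 1.94 to 2.54 for Gzmk. The authors' deposited table, from DESeq2, has 6 of the 37 genes higher and 0 lower at an adjusted p under 0.05, with 15.6% of all LSEC genes called in either direction. DESeq2 on the recovered reads also called 6, where 9.72% of all genes were higher. The 3 genes it added were Ctla4, Tigit and Lag3.

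With limma those 3 checkpoint receptors were not called, Ctla4 and Tigit by a narrow margin and Lag3 by a wider one. Ctla4 had 67.6, 19.6 and 36.3 normalized reads in NASH LSEC, against 6.27, 10.9 and 3.07 in chow LSEC (log2 fold change 2.41, adjusted p = 0.0519). Tigit had 29.0, 29.9 and 21.4 in NASH LSEC, against 6.27, 4.35 and 0 in chow LSEC (log2 fold change 3.02, adjusted p = 0.0552). Lag3 had 167, 93.3 and 75.3 in NASH LSEC, against 32.4, 63.1 and 23.5 in chow LSEC (log2 fold change 1.51, adjusted p = 0.0893). No library of one diet reached into the range of the other for any of them. Across the 37 genes this held for 7, all with NASH above chow, against 16.5% of all LSEC genes. The seventh was Cd8a, at 166, 84.0 and 116 in NASH LSEC and 76.3, 64.2 and 38.9 in chow LSEC (log2 fold change 1.02, adjusted p = 0.133). Cd274 had 2430.1, 967 and 1207 in NASH LSEC and 796, 1240.3 and 977 in chow LSEC and was the highest of the 37 per kilobase in LSEC of both diets (adjusted p = 0.382). Its first NASH library was far above the rest, and the other 2 lay within the chow range. The costimulators overlapped between the diets and were not called: Cd28 was at 58.1 ± 27.0 in NASH LSEC and 79.6 ± 64.0 in chow LSEC, and Icos at 137 ± 12.9 and 145 ± 26.0 (mean ± SD, n = 3 each).

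None of the 13 T cell receptor complex and lineage genes was called in LSEC by limma, edgeR or DESeq2, and 1 of them, Cd8a, had an unadjusted limma p under 0.05. Cd3e had 119.8, 63.4 and 111 normalized reads in NASH LSEC, against 223, 90.3 and 44.0 in chow LSEC, a log2 fold change of -0.03 with a 95% interval of -1.38 to 1.32 (adjusted p = 0.983). The NASH libraries lay inside the chow range, which ran from the highest to the lowest value of all 6. Cd3g and Cd4 were likewise at log2 fold changes of -0.17 and 0.01, Cd3d at -0.06, Cd247 at -0.25, Cd5 at -0.07, Cd6 at -0.04 and Zap70 at -0.05. Lck had 268, 159 and 171 in NASH LSEC and 389, 295 and 214 in chow LSEC. Thy1 had 265, 152 and 300.2 in NASH LSEC and 779, 354 and 190.4 in chow LSEC. Both overlapped between the diets (adjusted p = 0.259 and 0.424), as did Cd2, at 84.8 ± 30.3 in NASH LSEC and 136 ± 76.6 in chow LSEC (mean ± SD, n = 3 each). Cd8b1 was at 86.8 ± 2.96 in NASH LSEC and 51.9 ± 29.2 in chow LSEC (log2 fold change 0.87, adjusted p = 0.223).

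The first chow LSEC library stood apart. It had the highest value of the 6 LSEC libraries for 23 of the 37 genes, including all 5 NK cell receptors. Il2rb had 289.9, 137 and 312 normalized reads in NASH LSEC, against 1095, 208 and 169.9 in chow LSEC. Klrb1c had 38.6, 26.1 and 45.5 in NASH LSEC, against 237, 30.5 and 38.9 in chow LSEC. In the other 5 libraries the diets overlapped for both genes. Ncr1, Klrd1 and Klrk1 had 62.7, 94.0 and 253 in it and at most 23.5, 30.7 and 81.9 in the other chow libraries. Cd28 and Icos were also highest in it, at 154 and 168. Pdcd1, Ctla4, Lag3, Havcr2 and Tigit were below every NASH library in it. Without it, 3 of the 37 genes were still called, Pdcd1 and Havcr2 again and Tigit in place of Gzmk, with 4.87% of all genes higher, and the median log2 fold change over the 37 genes was 0.47.

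Cytotoxic genes other than Gzmk were not called in LSEC. Nkg7 had 173, 126 and 113 normalized reads in NASH LSEC, against 210.0, 112 and 81.9 in chow LSEC (log2 fold change 0.12, 95% interval -0.75 to 0.99). Gzma had 179, 88.6 and 104 in NASH LSEC and 86.7, 96.8 and 87.0 in chow LSEC, and Gzmb had 162, 113 and 126 in NASH LSEC and 279, 206 and 121 in chow LSEC. All 3 overlapped between the diets. Prf1, Fasl and Ifng were at log2 fold changes of 0.51, -0.24 and -0.85 (adjusted p = 0.555, 0.886 and 0.381). Among the transcription factors Eomes had 84.1, 28.0 and 60.4 in NASH LSEC, against 32.4, 16.3 and 23.5 in chow LSEC (log2 fold change 1.14, adjusted p = 0.186), and its second NASH library lay inside the chow range. Tbx21 and Gata3 were at -0.87 and -0.36 (adjusted p = 0.446 and 0.810). Foxp3 had 24 reads in the NASH libraries together and 11 in the chow libraries, too few for a direction (95% interval of its log2 fold change -2.43 to 2.59).

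Other genes of the pathways were mostly uncalled in LSEC as well, with 1 higher and 1 lower of 25 in receptor signalling, 1 and 1 of 28 measured among surface receptors, and 1 and 1 of 20 among cytotoxic and transcription genes. Tnfrsf9, the costimulatory receptor 4-1BB of activated T cells, had 148, 91.4 and 116 normalized reads in NASH LSEC, against 10.4, 5.44 and 4.09 in chow LSEC, a log2 fold change of 4.02 (adjusted p = 0.00493), and it rose by 3.40 in liver. Tox, a nuclear factor that T cells take on under lasting stimulation, had 109, 129 and 121 in NASH LSEC and 56.4, 46.8 and 35.8 in chow LSEC (log2 fold change 1.37, adjusted p = 0.0282). Cd27, a costimulatory receptor of naive and memory T cells, was lower, with 77.3, 77.4 and 79.9 in NASH LSEC and 199.5, 168 and 136 in chow LSEC (log2 fold change -1.07, adjusted p = 0.0346). None of these 3 genes overlapped between the diets. The other calls were Ptpn6, the phosphatase SHP-1 of blood cells, at 1.64, Fyn, a kinase also used in endothelial cells, at -0.53, and Srgn, a granule proteoglycan that endothelial cells also make, at -0.98.

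Endothelial markers in LSEC were higher for 2 and lower for 5 of 16, with sums of 448386 to 481706 normalized reads in NASH LSEC and 767874 to 787934 in chow LSEC. Markers of macrophages and Kupffer cells were higher for 7 and lower for 1 of 14, with sums of 68802 to 87308 in NASH LSEC and 15737 to 44774 in chow LSEC, so these groups did not overlap. Havcr2 had 3.34, 3.48 and 4.39 reads per 100 reads of Cd68 in NASH LSEC and 2.27, 1.67 and 1.81 in chow LSEC, again with every NASH library above every chow library. Of the genes shared by all leukocytes 5 of 10 were higher, of dendritic cell markers 2 of 11, of B cell and plasma cell markers 1 of 12 measured, of neutrophil markers 0 of 8 measured (2 with limma at an unadjusted p under 0.05), of stellate cell and fibroblast markers 6 of 14 and of hepatocyte markers 0 of 9 measured (1 with limma at an unadjusted p under 0.05). Hepatocyte markers summed to 40323 to 83879 in NASH LSEC and 7154 to 85172 in chow LSEC, with the second chow library the highest. None was at 0 in all libraries, and their part in the results on T and NK cell genes was not tested.

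A direct test of the difference between the tissues, the log2 fold change in liver minus that in LSEC, was made over 15766 shared genes. Of the 37 genes 4 passed, all with the larger change in liver, against 10.7% of all genes in that direction and 7.85% in the other. The 4 thus do not stand out in number. They were Lck, at a difference of 1.61 (95% interval 0.69 to 2.52, adjusted p = 0.0220), Klrd1 at 2.19 (0.77 to 3.60, 0.0371), Nkg7 at 1.87 (0.82 to 2.92, 0.0211) and Ifng at 2.89 (0.99 to 4.78, 0.0391). Each was higher in NASH liver and not called in LSEC. Cd3g differed by 1.94 and Zap70 by -2.15, which did not pass (adjusted p = 0.0603 and 0.0707). Without the third NASH liver none of the 4 differences passed, nor did they without the third NASH LSEC library. Klrd1 also lost its call without the first NASH liver, the first or the third chow liver or the second NASH LSEC library (adjusted p up to 0.0885 over all these), and Ifng without any library except the second chow liver, the first NASH LSEC library and the third chow LSEC library (up to 0.0864). The Ifng call also ended with pseudocount 0.1, pseudocount 10 and edgeR, and it held in 6 of 18 alternative fits.

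For the checkpoint receptors the estimated differences were close to 0, although their intervals were wide. Pdcd1 differed by -0.04 (-2.76 to 2.69), Tigit by -0.03 (-2.38 to 2.31), Lag3 by -0.09 (-1.33 to 1.16), Havcr2 by -0.18 (-1.25 to 0.90) and Ctla4 by -0.46 (-3.29 to 2.38), all as log2 differences with 95% intervals. Gzmk differed by 0.67 (-0.94 to 2.28). These intervals leave room for differences of more than 1 log2 unit in either direction for every gene of the 6 except Havcr2 above 0 and Gzmk below 0, so a like response was not shown. The sign of the small differences of Pdcd1, Tigit, Lag3, Havcr2 and Ctla4 turned with the pseudocount, the scaling or the libraries used.

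Reads of the checkpoint genes were also set against the CD3 reads of the same library, the sum of Cd3d, Cd3e and Cd3g. These ratios were chosen after the values were seen and are given without a test. CD3 reads numbered 302, 397 and 646 in NASH livers and 171, 157 and 79 in chow livers, and 329, 205 and 313 in NASH LSEC and 567, 239 and 141 in chow LSEC. Per 100 of them Pdcd1 had 28.5, 21.4 and 18.6 reads in NASH livers, against 9.94, 6.37 and 0 in chow livers, and 19.8, 13.7 and 11.2 in NASH LSEC, against 0.353, 0.837 and 0.709 in chow LSEC. The ratio was higher in every NASH library of either tissue. Gzmk had 16.9, 21.7 and 23.1 in NASH livers and 4.68, 8.28 and 6.33 in chow livers, and 25.5, 21.5 and 16.6 in NASH LSEC and 0.882, 7.53 and 6.38 in chow LSEC. Tigit had 18.9, 21.2 and 14.6 in NASH livers and 7.02, 8.28 and 2.53 in chow livers, and 9.12, 15.6 and 7.35 in NASH LSEC and 1.06, 1.67 and 0 in chow LSEC. Both genes kept every NASH library above every chow library in each tissue.

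Lag3 and Havcr2 parted the tissues on this base. Lag3 had 64.9, 50.6 and 41.3 reads per 100 CD3 reads in NASH livers and 46.2, 52.9 and 58.2 in chow livers, which overlapped, but 52.6, 48.8 and 25.9 in NASH LSEC and 5.47, 24.3 and 16.3 in chow LSEC, which did not. Havcr2 overlapped in liver, at 101, 57.9 and 56.3 in NASH and 25.1, 29.3 and 75.9 in chow, and was apart in LSEC, at 44.4, 77.6 and 67.7 in NASH and 8.64, 10.9 and 10.6 in chow. Whether the tissues differ in these ratios was not tested. Cd8a had 57.3, 60.2 and 47.4 in NASH livers and 46.2, 36.9 and 24.1 in chow livers, and 52.3, 43.9 and 39.9 in NASH LSEC and 12.9, 24.7 and 27.0 in chow LSEC, above chow in every NASH library. Its partner chain Cd8b1 overlapped in liver, at 34.8, 19.1 and 24.8 in NASH and 33.3, 27.4 and 19.0 in chow, and did not in LSEC, at 28.3, 43.9 and 29.7 in NASH and 14.3, 16.3 and 19.9 in chow. Foxp3 had 10.6, 7.81 and 4.64 in NASH livers and 4.09, 1.27 and 2.53 in chow livers, on 11 chow reads in all. By contrast Nkg7 had 64.9, 70.3 and 48.0 in NASH livers and 32.7, 40.1 and 53.2 in chow livers, and Gzma 12.6, 12.6 and 13.2 in NASH livers and 12.9, 11.5 and 20.3 in chow livers. Both overlapped between the diets. Prf1 had 12.3, 12.3 and 10.4 in NASH livers and 13.5, 19.1 and 24.1 in chow livers, below chow in every NASH liver.

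**Figure D4:**
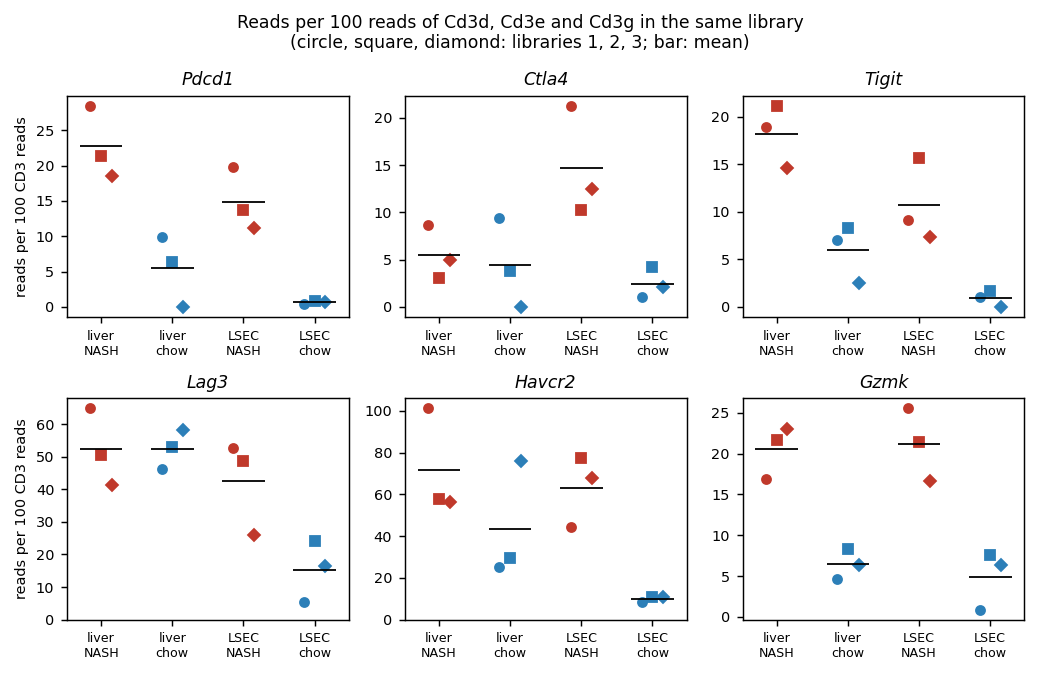
Reads of 6 genes per 100 reads of Cd3d, Cd3e and Cd3g in the same library (vertical axis, linear), with NASH in red, chow in blue, circle, square and diamond for libraries 1, 2 and 3, and bars at the mean. Pdcd1, Tigit and Gzmk are higher in every NASH library of both tissues. Lag3 and Havcr2 overlap between the diets in liver and are apart in LSEC, and Ctla4 does the same.

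Levels between the genes can be set side by side per kilobase of annotated exon. In NASH liver the highest of the 37 after Nkg7 were Cd274 at 136, Zap70 at 105, Havcr2 at 98.6 and Lag3 at 94.3 normalized reads per kilobase, as means over 3 libraries. Pdcd1 ranked 19 of 37 in NASH liver and 32 of 37 in chow liver, and Gzmk 11 and 24. In LSEC Pdcd1 ranked 20 in NASH and 36 in chow, Havcr2 7 in NASH and 27 in chow, and Ctla4 25 in NASH and 35 in chow. The ranks of Cd3e were 21 in NASH liver, 20 in chow liver, 18 in NASH LSEC and 15 in chow LSEC. Of the 37 genes 9 share exonic bases with another annotated gene. The counting was not stated to use strand, and how it treated shared bases is not given. Their reads could include the neighbour's, or reads on shared bases could have been left out. Overlaps on the opposite strand include Cd247 with Pou2f1 over 3007 bases, Foxp3 with Ccdc22 over 590 and Cd274 with the antisense transcript AC119228.1 over 511. Gata3 with Gm13256 over 155, Cd3e with Gm48719 over 135 and Eomes with Gm33460 over 118 are also of this kind. Overlaps on the same strand, where strand makes no difference, include Foxp3 with Flicr over 853 and Klrb1c with Gm44511 over 413. Ifng with Gm49751 over 336 and Lck with Mir8119 over 25 are also on the same strand.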

How the data were processed

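RNA-seq of whole mouse liver and of bead-enriched LSEC was analysed from the 2 deposited tables, 1 per tissue. The submitters' processing notes name build mm10 and the tools STAR, HTSeq, FastQC, Seurat and DESeq2, with versions and parameters not given in the sources used here. Per the labels, the liver kit (TruSeq v2) does not preserve strand. The deposited signal values are read counts divided by the authors by 1 factor per library, since dividing by the smallest value above 0 gave whole reads (tolerance 0.01) for 100% of values. The deposited tables also hold the authors' log2 fold changes, p-values and adjusted p-values. LSEC columns carry the diet but no replicate number, so those libraries are numbered by position as names only. Nothing in the labels ties replicates to separate mice, so p-values measure only the spread between these samples, which may be technical.

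Each tissue was fitted alone with limma 3.58.1 (R 4.3.3), with a variance trend, on log2(normalized reads + 1) without a filter, and p-values were adjusted by Benjamini-Hochberg over all genes of the table. The design had named edgeR for raw counts and limma otherwise. The difference between tissues was a contrast of 4 group means over 15766 shared genes, and 22 names turned into dates were left out. Alternatives were edgeR 4.0.16 and DESeq2 1.42.0 on recovered reads, pseudocounts 0.1 and 10, a mean of at least 10, total-read scaling, an adjusted p under 0.01, a replicate block and each library left out. Steps were tested on simulated data. Exon lengths and positions come from GENCODE M21, promoters from RefSeq. All 37 genes are described by role, and of other lists up to 3 called genes with the smallest adjusted p and up to 3 with the highest means could be named. 1 gene that this rule would name is not reported here. The lists were other T cell receptor signalling genes, T cell receptor constant regions, surface receptors, cytotoxic and transcription genes, and markers of B cells, all leukocytes, macrophages, dendritic cells, neutrophils, endothelial cells, stellate cells and hepatocytes. The 37 genes and these lists were chosen with earlier results of these data known. Limits from read counts cover counting error only.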

Additional observations from a re-analysis of the deposited data

Results flagged for a closer look

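The test of the tissue difference itself picked out 4 of the 37 genes, with log2 fold changes of NASH over chow that were larger in liver than in LSEC. In that direction 10.7% of all 15766 shared genes passed, so the 4 do not stand out in number. Nkg7 differed by 1.87 and Lck by 1.61, and both held except when the third NASH library of either tissue was left out. Klrd1 differed by 2.19 and Ifng by 2.89, and these ended in more fits. The lowest group mean of Ifng, in chow liver, was 1.42 ± 1.65 normalized reads (SD, n = 3), so its difference rests on very few reads. All 4 kept their direction in every alternative.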

How the results depend on the processing

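Pdcd1, Havcr2 and Gzmk were called in LSEC under every pseudocount, filter, scaling and tool tried, and the 13 liver calls listed above held in every alternative, all at an adjusted p under 0.05. The number of the 37 genes called in liver was 26, with 14 to 26 when each library was left out and 13 at an adjusted p under 0.01. In LSEC it was 3, with 0 to 5 when each library was left out, 5 with total-read scaling, 6 with DESeq2 and 1 at an adjusted p under 0.01. Differences between the tissues numbered 4, with 0 to 7 when each library was left out, 7 with total-read scaling, 8 with DESeq2 and 0 at an adjusted p under 0.01. With total-read scaling 1164 of all 16273 LSEC genes were higher and 273 lower. Of 15766 shared genes 3074 then had the larger change in liver and 644 passed in the other direction. Where no share of all genes is given for a fit, its count does not show whether the 37 genes changed more than other genes did. The causes of these changes in count were not tested. Total-read scaling turned these LSEC log2 fold changes, all near 0 and uncalled, to positive ones: Cd3d 0.073, Cd3e 0.11, Cd5 0.066, Cd6 0.096, Zap70 0.090 and Icos 0.073. Cd4 in LSEC was at -0.0028 with pseudocount 10, -0.16 with edgeR and -0.17 with DESeq2, and Foxp3 at -0.76 with pseudocount 0.1. Tissue differences changed sign with pseudocount 0.1 for Pdcd1 (0.54) and Ctla4 (0.49), with pseudocount 10 for Pdcd1 (0.35), Lag3 (0.0099) and Tigit (0.59), and with total-read scaling for Pdcd1 (0.21), Lag3 (0.19), Havcr2 (0.10) and Tigit (0.25). Leaving out each library gave uncalled values on both sides of 0 for these genes in LSEC. Log2 fold changes ran -0.73 to 0.52 for Cd3d, -0.58 to 0.57 for Cd3e, -0.56 to 0.31 for Cd3g, -0.50 to 0.24 for Cd247, -0.37 to 0.62 for Cd4 and -0.40 to 0.47 for Cd5. They ran -0.53 to 0.56 for Cd6, -0.45 to 0.58 for Zap70, -0.63 to 0.31 for Cd28, -0.21 to 0.051 for Icos, -1.40 to 0.057 for Klrb1c and -0.78 to 0.16 for Klrd1. They ran -0.061 to 0.78 for Klrk1, -0.81 to 0.22 for Ncr1, -1.04 to 0.30 for Il2rb, -0.18 to 0.49 for Nkg7, -0.94 to 0.49 for Fasl and -0.89 to 0.47 for Gata3. They ran -0.97 to 1.17 for Foxp3. Among tissue differences they ran -1.37 to 0.84 for Pdcd1, -1.66 to 0.50 for Ctla4, -0.48 to 0.24 for Lag3, -0.59 to 0.24 for Havcr2 and -0.80 to 0.85 for Tigit, and in liver -0.091 to 0.91 for Klrb1c. The liver replicate numbers did not pair the libraries: same-number deviations correlated at -0.01, -0.02 and 0.10, and a replicate block gave 23 calls in liver, without Cd6, Il2rb and Eomes. No paired analysis was possible because the LSEC columns carry no replicate number. Depth limits the weakest genes, with a mean under 50 reads per library for 13 of the 37 in liver and 16 in LSEC.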
